A study of Homo sapiens with 6 samples.

Results

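Angiogenic growth factors are secreted ligands that make blood vessels sprout, mature or leak, and 10 of their genes were followed here: VEGFA, VEGFB, VEGFC, ANGPT1, ANGPTL4, FGF2, PDGFA, PDGFC, HBEGF and HGF. The genes were taken by symbol from a deposited table of 58884 genes, and each symbol matched 1 row. Of the 10, 9 passed the filter on low counts that 16098 genes passed, and HGF did not. The RNA came from DBTRG, an established human glioblastoma cell line whose genotype is labelled WT in every sample, sequenced after 5 days of culture. The tested condition was growth in a soft gel (3D) and its reference growth on a rigid dish (2D), with 3 libraries each. All samples are from this single line with no vessel cells added, no source used here gives the material or stiffness of the gel, and the labels do not say whether the libraries came from separate cultures. The p-values below therefore rest on variation from library to library that could be purely technical.

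Vascular endothelial growth factors bind receptor tyrosine kinases on endothelial cells, with neuropilins as co-receptors. VEGFA is the main driver of vessel sprouting and is classically induced by low oxygen, VEGFB acts through FLT1, and VEGFC drives mainly lymphatic vessels. Angiopoietin-1 stabilises vessels through the TEK receptor, whereas fibroblast growth factor 2, platelet-derived growth factors, heparin-binding EGF-like growth factor and hepatocyte growth factor act on tumour, stromal and vessel cells through their own receptor kinases. Glioblastoma is a highly vascular brain tumour whose cells are a known source of VEGFA.

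The promoters of the 3 growth factor genes that passed the test below (FGF2, PDGFA and HBEGF), and that of ANGPTL4, are shown because the data bear on their transcript levels. Each line gives the 250 bases before the transcript start from RefSeq (GRCh38.p14), read 5′ to 3′ on the strand of the gene. The windows were chr4:122826581-122826830 on the plus strand for FGF2, chr5:140346604-140346853 on the minus strand for HBEGF, chr7:520227-520476 on the minus strand for PDGFA and chr19:8363905-8364154 on the plus strand for ANGPTL4. Capitals mark GGGCGG, the core of an SP1 site, or its reverse complement CCGCCC, and in ANGPTL4 also CACGT, the reverse complement of ACGTG.
FGF2: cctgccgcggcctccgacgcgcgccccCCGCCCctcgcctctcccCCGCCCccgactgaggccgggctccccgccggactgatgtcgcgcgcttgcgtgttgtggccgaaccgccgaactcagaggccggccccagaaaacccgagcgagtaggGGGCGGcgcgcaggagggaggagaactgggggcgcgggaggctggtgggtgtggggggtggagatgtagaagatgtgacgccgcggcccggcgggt
HBEGF: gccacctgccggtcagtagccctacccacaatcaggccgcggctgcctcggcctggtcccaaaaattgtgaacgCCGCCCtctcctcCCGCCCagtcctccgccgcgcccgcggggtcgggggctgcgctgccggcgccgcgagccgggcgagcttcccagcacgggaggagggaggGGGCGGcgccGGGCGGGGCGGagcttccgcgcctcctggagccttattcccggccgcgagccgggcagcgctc
PDGFA: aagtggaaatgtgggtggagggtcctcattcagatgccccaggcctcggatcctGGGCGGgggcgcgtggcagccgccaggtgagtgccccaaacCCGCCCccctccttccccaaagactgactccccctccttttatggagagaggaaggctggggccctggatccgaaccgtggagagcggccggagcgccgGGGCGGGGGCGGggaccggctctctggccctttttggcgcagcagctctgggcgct
ANGPTL4: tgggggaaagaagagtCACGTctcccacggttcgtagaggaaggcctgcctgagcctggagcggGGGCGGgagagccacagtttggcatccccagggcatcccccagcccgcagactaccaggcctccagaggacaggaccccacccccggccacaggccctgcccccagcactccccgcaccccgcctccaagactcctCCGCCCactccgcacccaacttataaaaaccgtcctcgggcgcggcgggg

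The motifs searched, on both strands of windows of 250 bases before to 50 bases after the start, were ACGTG (the core that hypoxia-inducible factors recognise), TGANTCA (AP-1), CATTCC (TEAD) and GGGCGG (SP1). Overlapping matches were counted. RefSeq windows were available for 7 of the 10 genes, and the 3 without one were VEGFA, ANGPT1 and PDGFC. ACGTG was found in the ANGPTL4 window, 234 bases before the start, and in 21.4% of all 35116 windows. CATTCC was found in the HGF window and in 14% of all windows. TGANTCA was in none of the 10 windows of these 7 genes, against 7.71% of all windows. GGGCGG was in the windows of FGF2 (3 matches), HBEGF (5), VEGFB (9), VEGFC (2), ANGPTL4 (2) and in each of 4 windows of PDGFA, and in 45.0% of all windows. FGF2, PDGFA, HBEGF, VEGFB and VEGFC had GGGCGG alone of the 4 motifs. Of these, FGF2 and HBEGF were higher and PDGFA lower in soft gel, and VEGFB and VEGFC were not called. These matches describe letters in the windows only.

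Library totals ran from 20911340 to 24135807 counts in soft gel and from 23944233 to 25901465 on the rigid dish, so that 3 counts corresponded to 0.112 to 0.141 CPM (counts scaled to TMM-adjusted library totals). Libraries of the same group correlated at 0.975 to 0.987 and libraries of different groups at 0.949 to 0.969 (Pearson's r over genes, on log2 CPM; genes are not replicates of each other). Rigid dish 1 stood apart on the second principal component (45.95, against -24.82 to 6.32 in the other libraries), and soft gel 3 lay nearest to the rigid dish libraries on the first (-25.91, against -46.23 and -54.03 in soft gel 1 and 2). Glioblastoma line markers summed to 4780 to 5080 TPM (which also corrects for transcript length) in soft gel and 4940 to 5370 TPM on the rigid dish, although OLIG2 was at 0 in all libraries and GFAP averaged 0.843 and 0.67 TPM. Within that sum VIM was lower in soft gel (2230 and 2930 TPM, log2 fold change -0.48, edgeR adjusted p = 0.0173) and CD44 higher (2610 and 2130 TPM, 0.33, 0.0372), and of the smaller members NES (-0.56, 0.0206) and EGFR were lower and SOX2 higher (0.59, 0.00506). The 12 endothelial markers summed to 6.54 to 8.35 TPM in soft gel and 7.69 to 9.51 TPM on the rigid dish, with PECAM1 at 0.27 and 0.113 TPM and CDH5 at 0.0733 and 0.01 TPM, and 1 of 5 tested, ESAM, was lower in soft gel (2.00 and 3.43 TPM, -0.84, edgeR adjusted p = 0.0438). The 6 pericyte markers summed to 5.86 to 7.54 TPM in soft gel and 3.3 to 7.81 TPM on the rigid dish, with ABCC9 higher (1.22, edgeR adjusted p = 0.0234) and PDGFRB lower. The 8 macrophage and microglia markers summed to 37.0 to 45.0 TPM in soft gel and 9.38 to 12.4 TPM on the rigid dish, of which CD68, also a lysosomal gene, made up 39.0 and 10.7 TPM (1.78, edgeR adjusted p = 0.000415). Of the others, AIF1 held 9, 3 and 1 counts in soft gel against 0 in each rigid dish library. TYROBP held 7, 2 and 2 counts against 1, 0 and 0, and C1QA and C1QB were at 0 throughout. CSF1R had fewer counts in soft gel, at 15, 6 and 8 against 15, 13 and 23 (-0.78, edgeR adjusted p = 0.249). Its TPM averaged 0.48 in soft gel and 0.27 on the rigid dish. PTPRC (14, 10 and 7 counts against 13, 1 and 4) and CD14 (7, 1 and 8 against 5, 3 and 2) overlapped between the groups. The part of these marker differences in the growth factor values was not tested. In bulk RNA, fewer cells of a type and less RNA per cell cannot be told apart.

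Of the 9 growth factor genes tested, FGF2 and HBEGF were higher in soft gel, PDGFA was lower and 6 did not pass (edgeR quasi-likelihood test, Benjamini-Hochberg adjusted p below 0.05 over all genes tested). Over all genes tested, 28.5% passed, 15.3% higher and 13.2% lower, so that 2 higher and 1 lower of 9 (22.2% and 11.1%) lay near the background. The libraries did not overlap between the groups, on the CPM scale, for 5 of the 9, with 4 genes above and 1 below, against 44.6% of all genes tested (23.5% above and 21.1% below). The median log2 fold change was 0.36 over the 9 genes and 0.05 over all genes tested, and 6 of the 9 fold changes were positive. A positive log2 fold change means a higher level in soft gel. The number of growth factors called higher was 0 without soft gel 1, soft gel 2, rigid dish 2 or rigid dish 3, and 3 without soft gel 3. All genes called higher numbered 1096, 997, 1093, 1395 and 2642 in the same order, against 2470 with all libraries kept. The number of growth factors called lower was 0 without soft gel 2 and 2 without rigid dish 1. All genes called lower were 801 and 2954 there, against 2117 with all libraries kept.

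**Figure D1:**
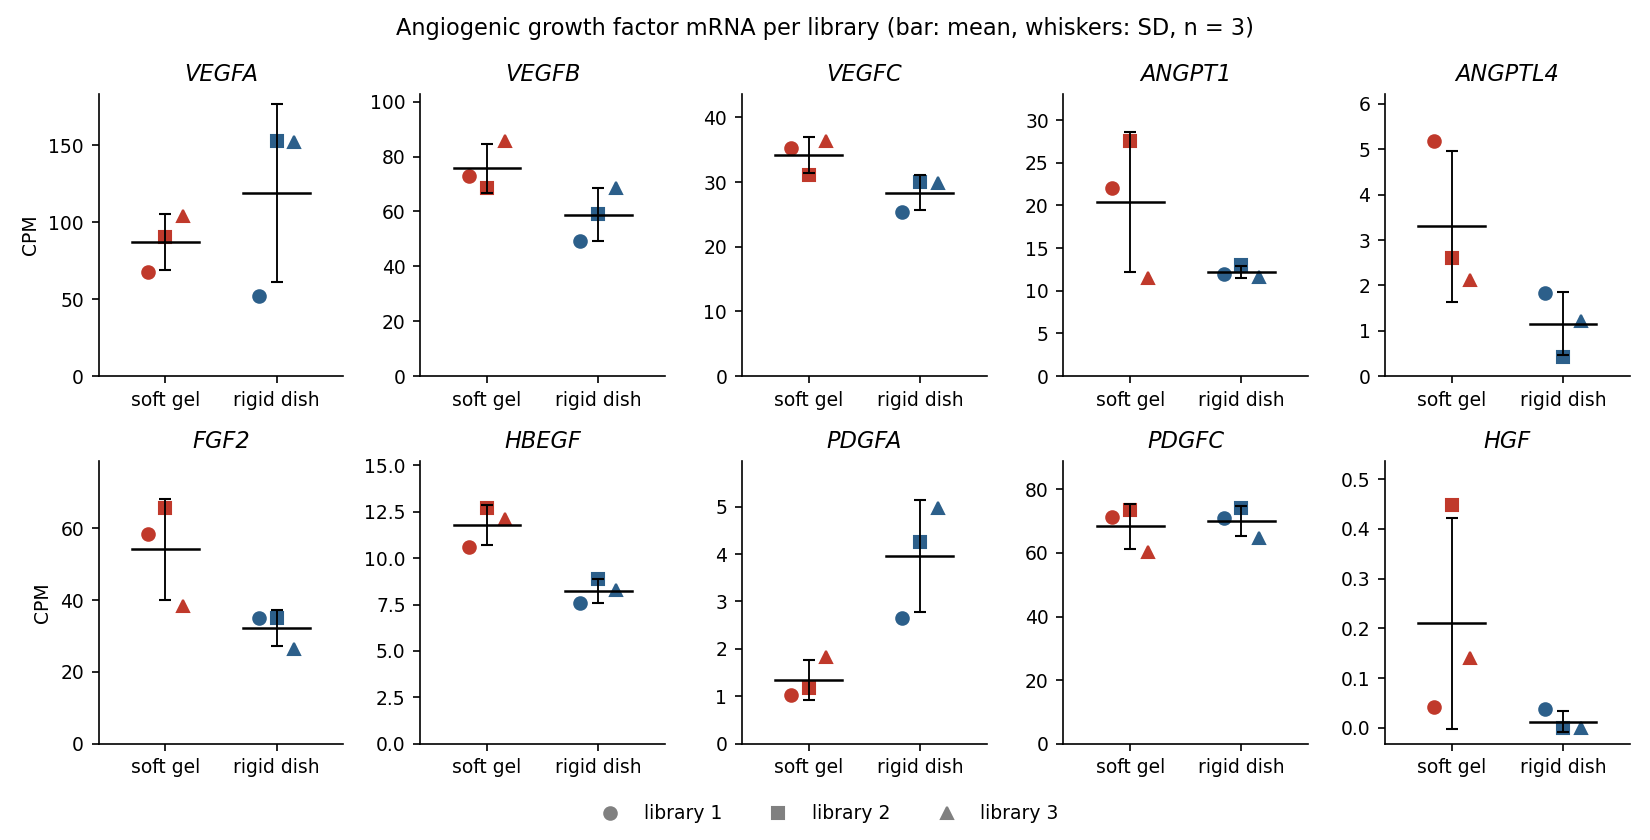
Level of each growth factor mRNA in every library, in CPM after TMM scaling, with soft gel libraries in red and rigid dish libraries in blue (bar, mean; whiskers, SD; n = 3). FGF2 and HBEGF lie higher in all 3 soft gel libraries and PDGFA lower, while VEGFA spans 52.1 to 153 CPM on the rigid dish.

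Levels of different genes were compared per transcript length, in TPM as deposited by the authors. VEGFB stood highest, at 125 ± 9.83 TPM in soft gel and 88.7 ± 5.97 TPM on the rigid dish (SD, n = 3 each). VEGFA followed at 61.4 ± 8.01 and 69.9 ± 28.6 TPM, then PDGFC at 32.9 ± 4.91 and 32.4 ± 7.82 TPM and VEGFC at 23.9 ± 2.07 and 18.3 ± 0.979 TPM. FGF2 (11.4 ± 3.18 and 7.53 ± 3.30 TPM), HBEGF (7.62 ± 0.557 and 5.05 ± 0.427 TPM) and ANGPT1 (7.16 ± 3.15 and 4.10 ± 0.348 TPM) formed a middle group. At the low end, ANGPTL4 stood above PDGFA in soft gel (2.97 ± 1.51 against 1.11 ± 0.295 TPM), and PDGFA above ANGPTL4 on the rigid dish (2.74 ± 0.665 against 1.16 ± 0.932 TPM). Neighbours whose libraries overlapped in soft gel were FGF2 and HBEGF, HBEGF and ANGPT1, and ANGPT1 and ANGPTL4. On the rigid dish the overlapping neighbours were VEGFB and VEGFA, VEGFA and PDGFC, FGF2 and HBEGF, and PDGFA and ANGPTL4.

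The 10 genes together summed to 274.6, 269 and 277.8 TPM in soft gel libraries 1 to 3 and to 199.3, 259 and 231.5 TPM on rigid dish 1 to 3, with no overlap. VEGFB made up 46.1%, 42.7% and 48.4% of that sum in soft gel and 41.1%, 35.7% and 39.7% on the rigid dish. Much of the gap between the sums lay in VEGFB, at a mean of 125 and 88.7 TPM. That gene did not pass the edgeR test (adjusted p = 0.0928). VEGFA made up 19.5%, 22.8% and 25.0% in soft gel and 18.7%, 35.0% and 35.4% on the rigid dish. VEGFA and VEGFB were thus nearly level in rigid dish 2 and 3, at a TPM ratio of 0.978 and 0.891, whereas VEGFA had 0.423 to 0.533 times the level of VEGFB in the soft gel libraries and 0.455 times in rigid dish 1.

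VEGFA, the principal vessel-sprouting factor (ENSG00000112715, hg38 chromosome 6, 43770184 to 43786487, plus strand), did not pass the test between the cultures, and 1 rigid dish library was far below the other two. It had 67.6, 90.2 and 104 CPM in soft gel 1 to 3, against 52.1, 153 and 152 CPM in rigid dish 1 to 3. All soft gel libraries lay between rigid dish 1 and the other rigid dish libraries, so the groups overlapped. The log2 fold change was -0.44 (SE 0.358, 95% interval -1.26 to 0.37, edgeR adjusted p = 0.371). Without rigid dish 1 it was -0.81 and the gene was called lower in soft gel (edgeR adjusted p = 0.00518). Without any of the other libraries it was -0.65 to -0.23 and not called (adjusted p = 0.317 to 0.703). An antisense gene, AL136131.3, overlaps VEGFA by 188 bases and held 0 to 7.14 counts.

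VEGFB and VEGFC were slightly higher in soft gel in mean level without passing the test. VEGFB (ENSG00000173511, chromosome 11, 64234538 to 64238793, plus strand), a ligand of FLT1, had 72.8, 68.4 and 85.8 CPM in soft gel, against 49.1, 59.1 and 68.4 CPM on the rigid dish. Soft gel 2 and rigid dish 3 met at 68.4 CPM, and the other soft gel libraries lay above. The log2 fold change of VEGFB was 0.36 (SE 0.149, 95% interval 0.03 to 0.70, edgeR adjusted p = 0.0928). In TPM its groups did not overlap (114.82 to 134.34 in soft gel and 81.86 to 92.55 on the rigid dish), and limma on log2(TPM + 1) called it higher (log2 fold change 0.49, limma adjusted p = 0.0241). VEGFC (ENSG00000150630, chromosome 4, 176683538 to 176792727, minus strand) had 35.2, 31.1 and 36.4 CPM in soft gel, against 25.3, 30.0 and 29.8 CPM on the rigid dish. Its libraries did not overlap, but the log2 fold change of 0.27 did not pass (SE 0.128, 95% interval -0.02 to 0.56, edgeR adjusted p = 0.135).

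ANGPT1 and ANGPTL4 both averaged more in soft gel, each with 1 soft gel library carrying much of the difference or lacking it. ANGPT1, the vessel-stabilising angiopoietin (ENSG00000154188, chromosome 8, 107249482 to 107498055, minus strand), had 22.1, 27.6 and 11.5 CPM in soft gel, against 12.0, 13.0 and 11.6 CPM on the rigid dish. Soft gel 3 was as low as the rigid dish libraries. The log2 fold change was 0.75 (SE 0.274, 95% interval 0.13 to 1.36, edgeR adjusted p = 0.0661), and without soft gel 3 it was 0.97 and passed (adjusted p = 0.00404). With all libraries kept it also passed with DESeq2 (0.70, adjusted p = 0.0301) and with no low-count filter (0.68, adjusted p = 0.00251). ANGPTL4 (ENSG00000167772, chromosome 19, 8363289 to 8374373, plus strand) encodes a secreted inhibitor of lipoprotein lipase with reported effects on vessels. It had 5.19, 2.60 and 2.11 CPM in soft gel, against 1.83, 0.431 and 1.21 CPM on the rigid dish. These levels rest on 126, 64 and 45 counts in soft gel and 49, 10 and 27 counts on the rigid dish. In CPM each soft gel library lay above each rigid dish library, with soft gel 1 far above the rest. In TPM the groups overlapped, with soft gel 3 at 1.73 and rigid dish 1 at 2.19 TPM. Its log2 fold change of 1.5 narrowly missed the threshold (SE 0.502, 95% interval 0.37 to 2.63, edgeR adjusted p = 0.0516). Without soft gel 1 it was 1.01 (adjusted p = 0.213), and it passed without soft gel 3 (1.67, adjusted p = 0.0425), without rigid dish 1 (2.01, adjusted p = 0.021), with DESeq2 (1.46, adjusted p = 0.0155), with no low-count filter (1.43, adjusted p = 0.00033) and with upper quartile factors (1.52, adjusted p = 0.0492). It did not pass without soft gel 2 (adjusted p = 0.0998), rigid dish 2 (0.131) or rigid dish 3 (0.116). On TPM values it also failed (limma adjusted p = 0.13 and 0.133). ANGPTL4 thus passed in 4 of 10 alternatives with all libraries kept and in 2 of 6 fits leaving out 1 library.

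FGF2 and HBEGF, heparin-binding ligands of the FGF and EGF receptors, were the growth factors called higher in soft gel. FGF2 (ENSG00000138685, chromosome 4, 122826708 to 122898236, plus strand) had 58.3, 65.6 and 38.4 CPM in soft gel, against 35.1, 34.9 and 26.4 CPM on the rigid dish. Soft gel 1 and 2 were well above all rigid dish libraries, and soft gel 3 was just above them. The log2 fold change of FGF2 was 0.75 (SE 0.202, 95% interval 0.30 to 1.21, edgeR adjusted p = 0.0242). Leaving out a library ended the call for soft gel 1 (0.69, adjusted p = 0.091), soft gel 2 (0.59, 0.107), rigid dish 2 (0.81, 0.0647) or rigid dish 3 (0.56, 0.0912), as did TPM values (0.58, limma adjusted p = 0.238). NUDT6, on the opposite strand, overlaps FGF2 by 9540 bases and held 174.02 to 234.01 counts in soft gel and 211.5 to 220.67 on the rigid dish. Reads of the overlap cannot be told apart where no strand setting is stated.

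HBEGF (ENSG00000113070, chromosome 5, 140332843 to 140346631, minus strand) is made as a membrane-anchored precursor that is shed to activate EGFR and ERBB4. It had 10.6, 12.7 and 12.1 CPM in soft gel, against 7.56, 8.87 and 8.29 CPM on the rigid dish, with a clear gap between the groups. The log2 fold change of HBEGF was 0.52, a 1.43-fold difference (SE 0.158, 95% interval of the fold 1.12 to 1.83, edgeR adjusted p = 0.0374). Its direction held under every alternative run, but the call was lost on leaving out any 1 of the 6 libraries (adjusted p = 0.0569 to 0.138), with DESeq2 size factors (0.0503), with no low-count filter (0.114) and on TPM values (0.0802 and 0.0817).

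PDGFA, a ligand of PDGFRA that drives glial progenitors, was lower in soft gel, while PDGFC was level. PDGFA (ENSG00000197461, chromosome 7, 497258 to 520296, minus strand) had 1.03, 1.18 and 1.83 CPM in soft gel, against 2.66, 4.26 and 4.97 CPM on the rigid dish. These levels rest on 25, 29 and 39 counts in soft gel and 71, 99 and 111 counts on the rigid dish, and the groups did not overlap. The log2 fold change of PDGFA was -1.56, to 0.339 times the rigid dish level (SE 0.331, 95% interval of the fold 0.202 to 0.569, edgeR adjusted p = 0.00991). It passed under every alternative that kept all libraries (adjusted p up to 0.0432) and was lost on leaving out soft gel 2 (-1.47, adjusted p = 0.0528). PDGFC (ENSG00000145431, chromosome 4, 156760454 to 156971394, minus strand), a ligand that needs proteolytic removal of its CUB domain, had 71.4, 73.4 and 60.2 CPM in soft gel, against 71.0, 74.1 and 64.8 CPM on the rigid dish. The 95% interval of its fold ran from 0.810 to 1.18 (log2 fold change -0.03, SE 0.12, edgeR adjusted p = 0.849).

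HGF, the ligand of MET (ENSG00000019991, chromosome 7, 81699008 to 81770438, minus strand), was at the limit of detection. Its counts were 1, 11 and 3 in soft gel, against 1, 0 and 0 on the rigid dish, and soft gel 2 held 11 of the 15 counts in soft gel. The ratio of summed counts, scaled to library size, was 16.2, with a 95% counting interval of 2.49 to 682 that covers counting error only, not the spread between libraries.

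In the authors' deposited table, whose name refers to DESeq2, PDGFA had a log2 fold change of -1.30 (adjusted p = 0.000337) and ANGPTL4 of 1.03 (adjusted p = 0.0175), and these were the growth factors marked as significant there. The authors' deposited table gave FGF2 0.65 (adjusted p = 0.00402), ANGPT1 0.61 (0.0323), HBEGF 0.43 (0.0731) and VEGFA -0.35 (0.495), none of them marked. The mark thus did not follow an adjusted p below 0.05 alone. The unmarked FGF2 and ANGPT1 had folds of 1.56 and 1.53, and the marked ANGPTL4 and PDGFA 2.04 and 0.407.

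Among 23 other ligands of the same families, 15 were tested, 3 were higher in soft gel and 3 lower, with a median log2 fold change of 0.15. The background over all genes tested was 15.3% higher and 13.2% lower, with a median of 0.05. ANGPT2, which opposes ANGPT1 at the TEK receptor in most settings, had 16.3, 23.5 and 10.7 CPM in soft gel, against 1.12, 1.46 and 2.02 CPM on the rigid dish (log2 fold change 3.46, SE 0.334, edgeR adjusted p = 0.000415). Every soft gel library was above every rigid dish library. ANGPT2 overlaps MCPH1, on the opposite strand, over 63759 bases, and MCPH1 held 322 to 479.36 counts in soft gel and 405 to 507.99 on the rigid dish. PDGFB, which recruits pericytes through PDGFRB, fell as PDGFA did, with 4.16, 2.60 and 3.43 CPM in soft gel, against 6.62, 10.4 and 10.4 CPM on the rigid dish (log2 fold change -1.42, SE 0.254, edgeR adjusted p = 0.00494). PDGFD and FGF18, chosen after their values were seen, were higher, PDGFD at 6.05, 6.41 and 3.61 CPM in soft gel, against 1.61, 1.34 and 0.762 CPM on the rigid dish (2.11, edgeR adjusted p = 0.00325). FGF18 had 40, 34 and 37 counts in soft gel and 4, 3 and 3 counts on the rigid dish (3.47, edgeR adjusted p = 0.000979). The PDGF ligands thus split, with PDGFA and PDGFB lower, PDGFD higher and PDGFC level.

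Among the other EGF family ligands, NRG1 and AREG were lower in soft gel. NRG1, a ligand of ERBB3 and ERBB4, fell to 144 ± 6.51 CPM in soft gel, against 250 ± 23.7 CPM on the rigid dish (log2 fold change -0.80, SE 0.109, edgeR adjusted p = 0.00176). AREG, also chosen after its values were seen, had a log2 fold change of -0.78 (edgeR adjusted p = 0.022). TGFA and EGF were likewise chosen after their values were seen. TGFA, at 376 ± 32.2 CPM in soft gel and 369 ± 66.3 CPM on the rigid dish, and EGF, at 79.1 ± 4.24 and 70.0 ± 13.5 CPM, did not pass (edgeR adjusted p = 0.904 and 0.382).

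**Figure D2:**
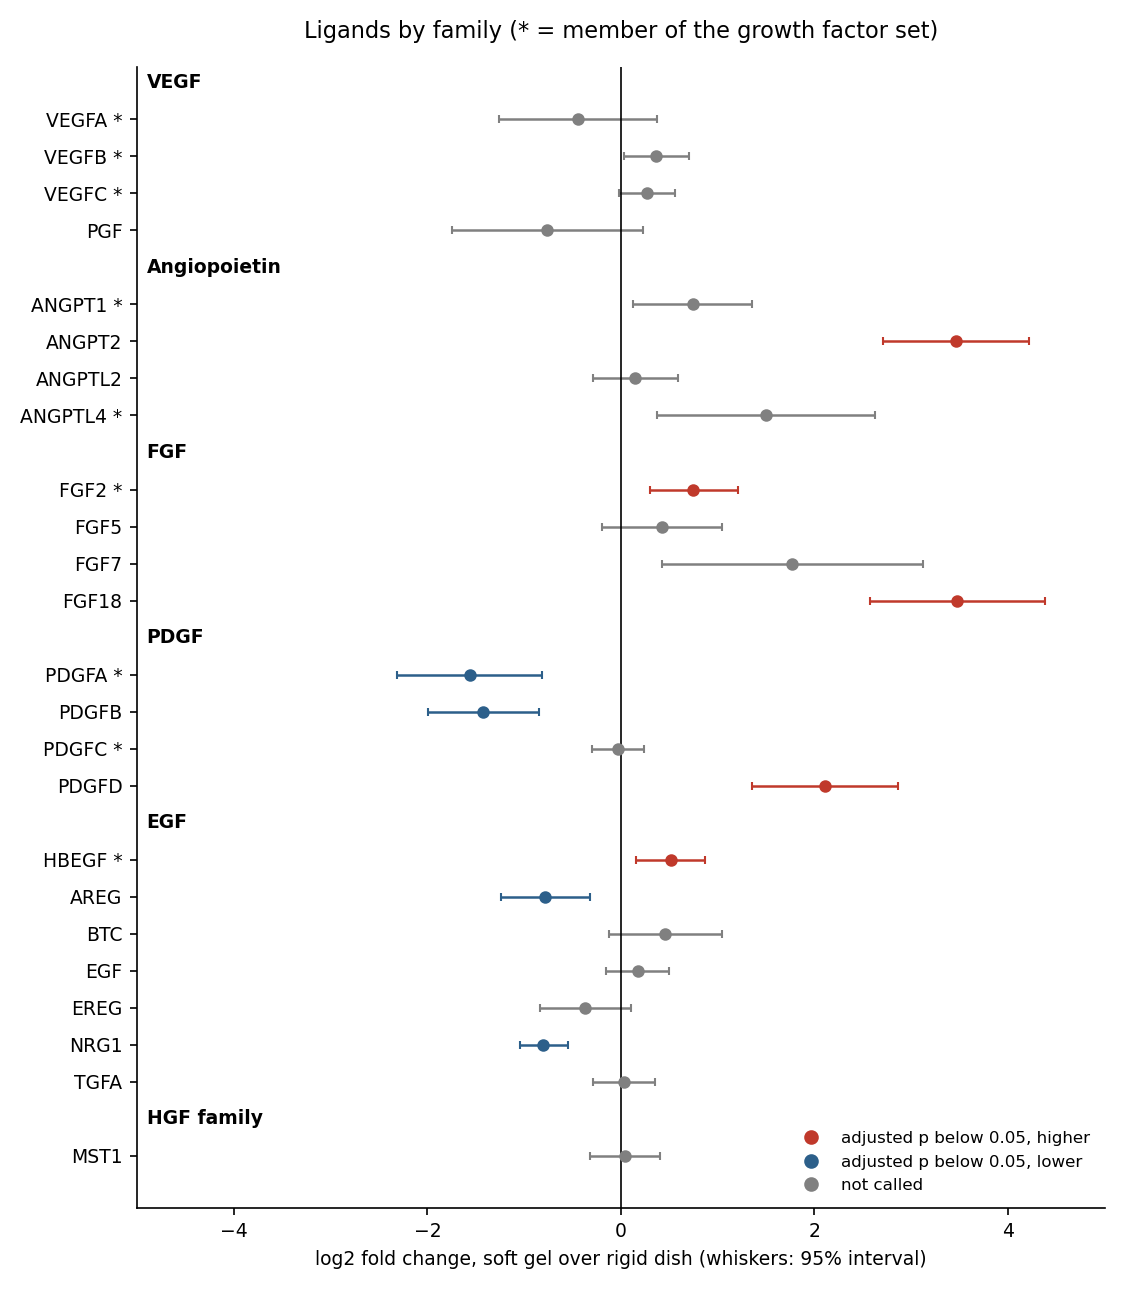
Log2 fold change (x axis, soft gel over rigid dish, 95% intervals as whiskers) of each tested ligand, by family, with asterisks on the growth factors followed here. Red and blue points passed the test; ANGPT2 lies at 3.46, and PDGFA (-1.56) and PDGFB (-1.42) lie together on the lower side.

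Of 18 receptors and co-receptors, 15 were tested, 2 were higher and 3 lower, with a median log2 fold change of 0.15. Across all genes tested, 15.3% were higher and 13.2% lower, with a median of 0.05. The VEGF receptor kinases were at low levels: FLT1 and FLT4 were below the filter, and KDR had 3.05 ± 0.219 CPM in soft gel and 1.84 ± 0.368 CPM on the rigid dish (log2 fold change 0.72, edgeR adjusted p = 0.0581). The co-receptors were abundant, with NRP2 at 1080 ± 21.7 and 1060 ± 43.7 CPM (0.04, adjusted p = 0.808) and NRP1 at 276 ± 20.1 and 221 ± 15.0 CPM (0.32, adjusted p = 0.0512). NRP1 passed with upper quartile factors (adjusted p = 0.0315). TEK, the angiopoietin receptor, had 0.531 ± 0.180 CPM in soft gel and 1.17 ± 0.527 CPM on the rigid dish and did not pass (-1.15, adjusted p = 0.0895). MET stood at 478 ± 21.6 and 430 ± 21.9 CPM (0.15, adjusted p = 0.263), beside an HGF level close to 0.

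EGFR, which binds HBEGF, fell to 98.6 ± 3.99 CPM in soft gel, against 149 ± 13.6 CPM on the rigid dish (log2 fold change -0.60, SE 0.110, edgeR adjusted p = 0.00557), whereas HBEGF was higher. ERBB2 was lower as well (-0.66, adjusted p = 0.0254), and ERBB4, the other HBEGF receptor, was higher at a low level (1.29 ± 0.124 and 0.462 ± 0.108 CPM, 1.48, adjusted p = 0.0164). FGFR1 averaged 42.3 ± 8.55 CPM in soft gel and 31.5 ± 5.64 CPM on the rigid dish without passing (0.43, adjusted p = 0.103), and FGFR3 was higher (8.08 ± 2.36 and 3.13 ± 0.453 CPM, 1.37, adjusted p = 0.00621). PDGFRB, the receptor of PDGFB, was lower (2.49 ± 0.477 and 4.62 ± 1.21 CPM, -0.89, adjusted p = 0.0345), and PDGFRA, the receptor of PDGFA and PDGFC, did not pass (3.42 ± 0.892 and 2.42 ± 0.926 CPM, 0.49, adjusted p = 0.286). On leaving out 1 library, the PDGFRB call was kept in 1 of 6 fits, those of ERBB2 and ERBB4 in 3 of 6, and those of EGFR and FGFR3 in all 6. On log2(TPM + 1) values none of these 5 receptor calls was made, and the count over the whole list was 0 in either direction, against 1359 higher and 941 lower over all genes.

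**Figure D3:**
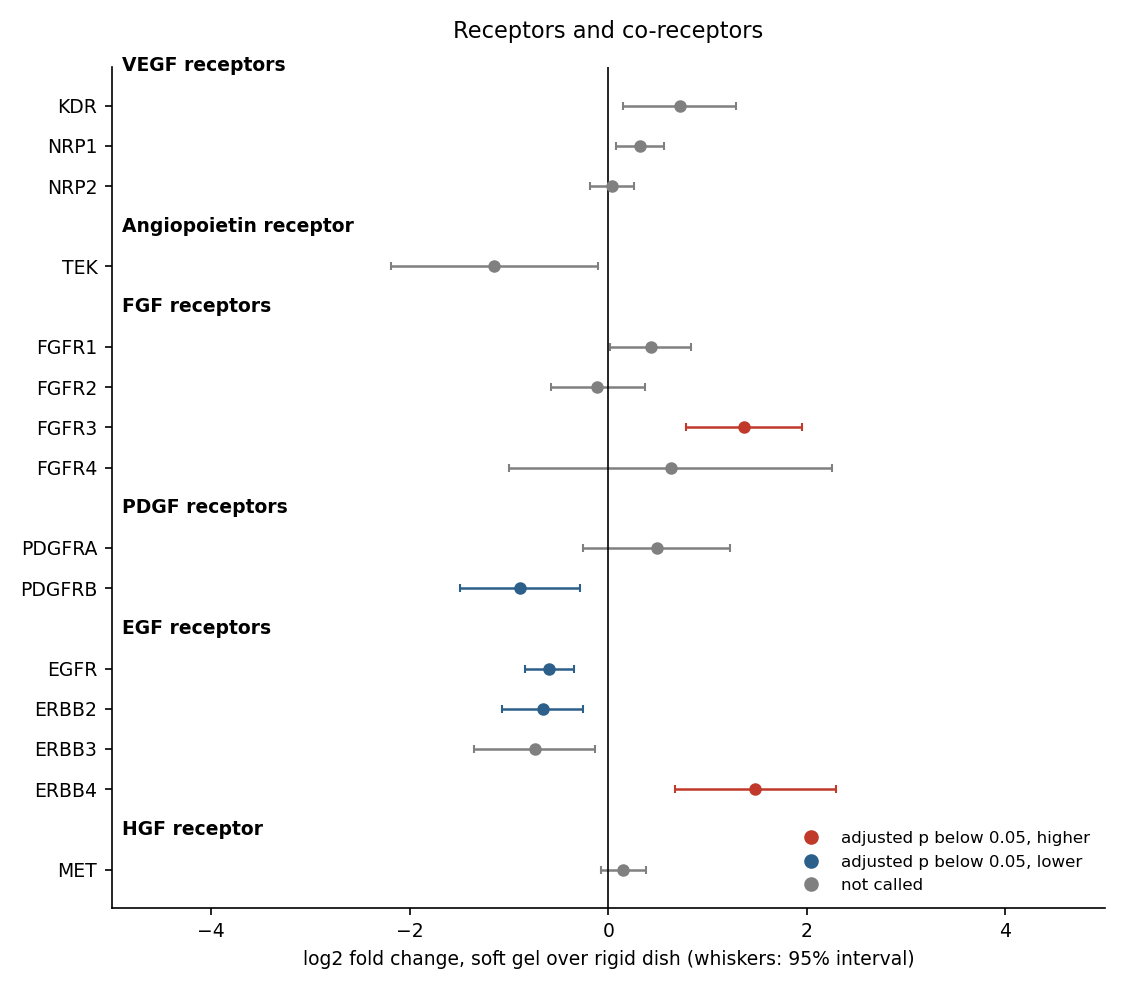
Log2 fold change (x axis, soft gel over rigid dish, 95% intervals as whiskers) of each tested receptor and co-receptor, by ligand family. EGFR, ERBB2 and PDGFRB passed on the lower side (blue), and FGFR3 and ERBB4 on the higher side (red).

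A list of 21 genes around the processing and release of the growth factors also held the protease inhibitors SPINT1 and SPINT2, and LPL. Its counts in either direction therefore mix genes of opposite roles. Of the 21, 14 were tested, 2 were higher and 4 lower, with a median log2 fold change of -0.20, against 15.3% higher and 13.2% lower over all genes tested. PLAT, tissue plasminogen activator, which cleaves the CUB domain from PDGFC, had 325, 273 and 289 CPM in soft gel, against 591, 765 and 732 CPM on the rigid dish (log2 fold change -1.24, SE 0.131, edgeR adjusted p = 0.000627). PLAU, urokinase, had 498, 489 and 532 CPM in soft gel, against 723, 1270 and 1220 CPM (-1.08, SE 0.194, adjusted p = 0.00507). ADAM10, a sheddase, was higher, with 212, 212 and 132 CPM in soft gel, against 123, 104 and 92.9 CPM (0.79, SE 0.190, adjusted p = 0.0156), but that call was lost without soft gel 1, soft gel 2, rigid dish 2 or rigid dish 3 (adjusted p = 0.0621 to 0.0733). ADAM17, the main sheddase of HBEGF, had 79.4 ± 5.78 CPM in soft gel and 69.8 ± 1.48 CPM on the rigid dish and did not pass (0.19, adjusted p = 0.21). LPL, the enzyme that ANGPTL4 inhibits, was higher (4.05 ± 1.16 and 0.692 ± 0.233 CPM, 2.54, adjusted p = 0.00167). ADAM17 and LPL were chosen after their values were seen, as were HPSE (-1.05, adjusted p = 0.0085) and SPINT2 (-1.56, adjusted p = 0.0385), which completed the lower genes.

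Of 16 angiogenesis inhibitors, 9 were tested, 3 were higher and 2 lower, with a median log2 fold change of 0.57. All genes tested had 15.3% higher and 13.2% lower, with a median of 0.05. TIMP3, a metalloproteinase inhibitor that also blocks VEGFA at KDR, fell to 233 ± 17.1 CPM in soft gel, against 449 ± 35.3 CPM on the rigid dish (log2 fold change -0.95, SE 0.111, edgeR adjusted p = 0.000999). THBS1, thrombospondin-1, had 931 ± 158 CPM in soft gel and 1560 ± 488 CPM on the rigid dish (-0.74, SE 0.211, adjusted p = 0.0293), a call that failed with soft gel 2 or soft gel 3 left out (adjusted p = 0.117 and 0.0552) and on both TPM scales (limma adjusted p = 0.164 and 0.171). ADAMTS1, a protease that sequesters VEGFA, rose to 79.8 ± 8.80 CPM, against 42.2 ± 1.62 CPM (0.92, SE 0.118, adjusted p = 0.00141). TNMD (2.32, adjusted p = 0.00543) and TNFSF15 (2.38, adjusted p = 0.00826), chosen after their values were seen, were higher at means below 2.5 CPM.

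VEGFA and ANGPTL4 are textbook targets of hypoxia-inducible factors, so 12 other hypoxia-induced genes were set beside them. Of 11 tested, 0 were higher and 3 lower in soft gel, with a median log2 fold change of -0.23, by edgeR at the adjusted threshold, against 15.3% higher and 13.2% lower over all genes tested. At an unadjusted p below 0.05, 2 were higher and 4 lower, and DESeq2 called 0 higher, against 2544 of 16098 over all genes. With no low-count filter, and likewise without rigid dish 1, 2 were called higher. All genes called higher there were 2726 of 29366 and 3178 of 16566 tested. LDHA, lactate dehydrogenase A, had 726, 612 and 758 CPM in soft gel, against 1780, 1310 and 1160 CPM on the rigid dish (log2 fold change -1.02, edgeR adjusted p = 0.00356), a call lost on both TPM scales (-0.92, limma adjusted p = 0.0541 and 0.0565). SLC2A1, the main glucose transporter, had 296, 261 and 346 CPM, against 585, 567 and 598 CPM (-0.96, adjusted p = 0.00138). Rigid dish 1, the library in which VEGFA was low, held the highest LDHA, PDK1 (41.9 CPM, against 24.5 and 19.1) and BNIP3 (99.8, against 71.2 and 69.9) of the rigid dish libraries. It was the highest rigid dish library for 8 of the 11 hypoxia-induced genes (72.7%), against 41.4% of all genes tested, and the lowest for 2 (18.2%), ADM and NDRG1, also against 41.4%. Unlike VEGFA, ANGPTL4 was highest in rigid dish 1 among the rigid dish libraries (1.83 CPM, against 0.431 and 1.21). CA9, the listed gene below the filter, held 36.78 counts in rigid dish 1. Its counts were 4 and 1 in rigid dish 2 and 3, and 0.67, 0 and 1 in soft gel. PDK1, BNIP3, ADM, NDRG1 and CA9 were chosen after their values were seen.

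**Figure D4:**
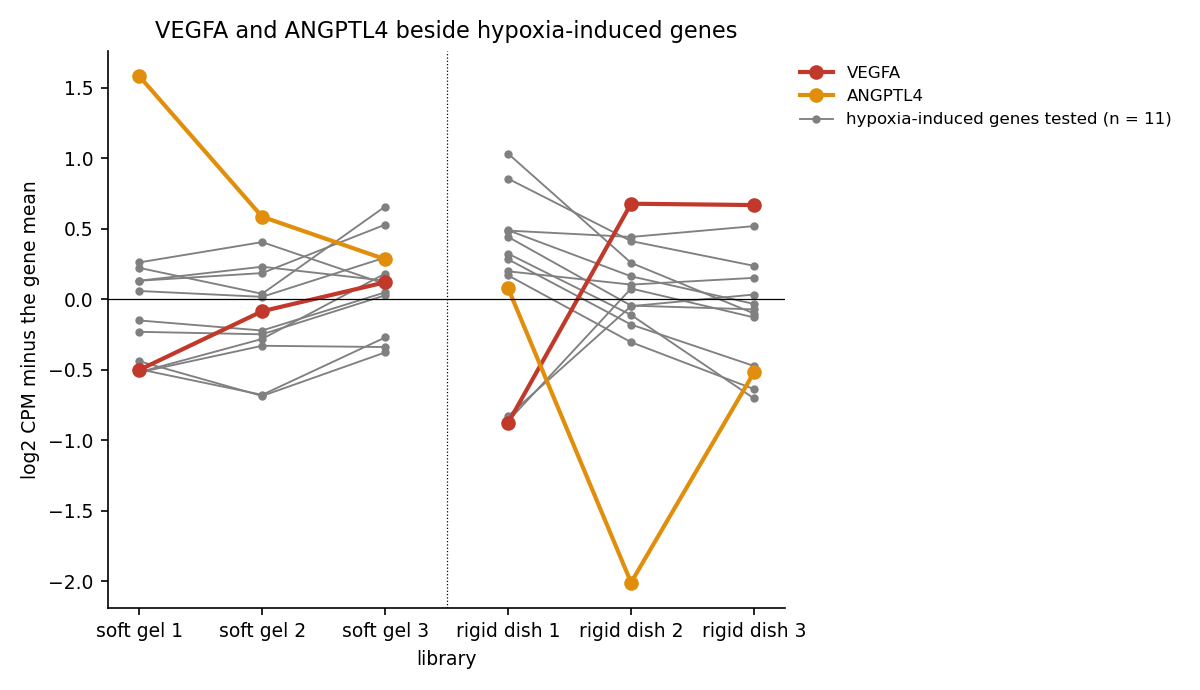
Log2 CPM of VEGFA (red), ANGPTL4 (orange) and 11 hypoxia-induced genes (grey) in each library, as the difference from the gene mean; lines join libraries of a group for reading only. In rigid dish 1 VEGFA is at its lowest level (52.1 CPM), where 8 of the 11 grey lines are at their highest among the rigid dish libraries.

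Among 89 other listed genes that were tested, the profile over the 6 libraries nearest to that of FGF2 was that of ADAM10, with a root mean square difference of 0.0939 on the log2 CPM scale after removing each gene's mean, followed by SEMA3A (0.156). The nearest profiles to HBEGF were those of VASH1 (0.101) and NRP1 (0.135). PDGFA had no profile as close, with PLAU at 0.316 and PDGFB at 0.335.

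The deposited counts and TPM differ by a length factor that was not the same in every library for some of these genes. Dividing counts by TPM, and scaling each library so that the median gene matched its listed length, gave an implied transcript length, which varies where the mix of transcripts assigned to a gene varies. For VEGFA, annotated with 32 transcripts in GENCODE release 29, it was 2287, 2581 and 2546 bases in soft gel, against 2650, 2691 and 2749 bases on the rigid dish. The soft gel libraries were all shorter (log2 ratio of means -0.13), as for 5.34% of 11632 well-covered genes, while the libraries of 19.2% did not overlap in either direction. For FGF2 it was 8328 to 8382 bases in soft gel and 5963, 8231 and 8374 bases in rigid dish 1 to 3, so that the FGF2 level in rigid dish 1 was 11.14 TPM, within the soft gel range of 7.79 to 13.79 TPM. The listed length of FGF2 was 867 bases, far below these, so its place among the growth factor levels in TPM depends on the length used. For PDGFC the implied length was 3600 to 3754 bases in soft gel and 3717, 3148 and 4095 bases on the rigid dish. HBEGF, with 3 annotated transcripts, stayed within 2676 to 2715 bases in all libraries. No source used here says how the authors assigned reads to transcripts, and the part of that step in these lengths was not tested.

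**Figure D5:**
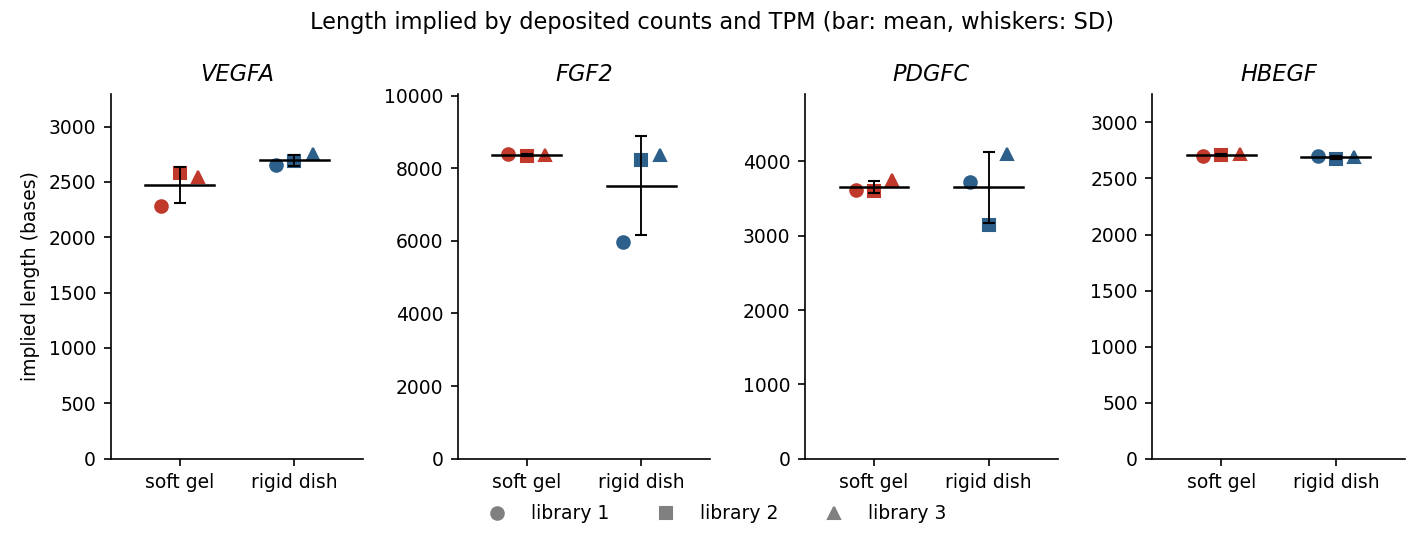
Transcript length implied by the ratio of deposited counts to deposited TPM, in bases, for 4 growth factor genes in every library (bar, mean; whiskers, SD; n = 3). VEGFA is shorter in all soft gel libraries, FGF2 drops to 5963 bases in rigid dish 1 alone, and HBEGF is flat.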

How the data were processed

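RNA of DBTRG cells was sequenced from TruSeq libraries of TRIzol-extracted RNA, per the labels' protocols, with 3 soft gel and 3 rigid dish libraries. Per the submitters' processing notes, HISAT2 and HTSeq were used on build hg38, with no roles or versions given. The authors deposited estimated counts per gene (11.3% to 13.0% of genes per library held decimals), TPM values (985477 to 991371 per library in sum), and their own comparison: a linear ratio (fold), its log2 value, and a p-value with its adjusted form. No source used here states the strand setting.

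Counts were rounded to whole numbers, filtered with filterByExpr (minimum count 10), scaled by TMM and compared with edgeR's quasi-likelihood test with robust estimation (edgeR 4.0.16, limma 3.58.1, DESeq2 1.42.0, R 4.3.3), adjusted by Benjamini-Hochberg over 16098 genes. SE and 95% intervals came from the test statistic. Adjusted p-values in the text are edgeR's unless another tool is named. CPM are TMM-scaled, and means are given with SD (n = 3). Limits from counts of 0 to 3 cover counting error only.

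The growth factors and gene lists were chosen with earlier results of these data known. The genes named were the growth factors, their receptors and, per list, up to 2 higher and 2 lower genes of at least 5 CPM with the largest change, and, for each growth factor called, the 2 listed genes nearest in profile. Genes outside this rule are marked in the text, apart from cell type markers. Positions came from GENCODE release 29 and promoters from RefSeq. Protein sequences were not used here, and a search for a family signature in them was not run. Simulated data of 3 with 3 libraries held 16098 genes, of which 200 were changed. There edgeR recovered 23.9% of 1.5-fold, 58.2% of 2-fold and 83.3% of 4-fold changes, and 10.6% of calls were false. In the real data 28.5% of genes passed, so these rates need not carry over. Alternatives were other scalings, filters, tools and units, a replicate block and leaving out each library. A fit without robust estimation was added after seeing the data. Figures were drawn with matplotlib 3.10.9.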

Additional observations from a re-analysis of the deposited data

How the results depend on the processing

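Over 144 fits of the 9 growth factors under alternatives, 110 kept direction and side of the threshold, 14 gained a call, 17 lost one and 3 changed sign. The changes of sign were all for PDGFC, at 0.00 without rigid dish 2 and at 0.04 on either TPM scale, none of them called (-0.16 to 0.00 on leaving out 1 library). NRP2 (-0.04 to 0.06) also changed sign, at -0.01 (DESeq2 size factors, DESeq2), -0.03 (no low-count filter, without soft gel 3) and -0.04 (without rigid dish 3). Growth factors called higher (2) numbered 1 with DESeq2 size factors (FGF2), 1 on TPM values and 4 with DESeq2. The call on TPM values was VEGFB, with FGF2 and HBEGF both lost. All genes called higher numbered 2272 with DESeq2 size factors and 2544 with DESeq2. Leaving out 1 library gave 0 to 3 growth factors higher and 0 to 2 lower (1 with all libraries kept). On leaving out 1 library, all genes called ran from 997 to 3178 higher and 801 to 2954 lower, receptors from 1 to 3 higher and 1 to 4 lower, processing genes from 1 to 3 higher, inhibitors from 1 to 2 lower, and hypoxia-induced genes from 0 to 2 higher.

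On TPM values (log2(TPM + 1), then log2(TPM + 0.1)), 1359 and 1348 genes were higher and 941 and 953 lower. There, 0 receptors were called higher and 0 lower, and 1 inhibitor and 1 hypoxia-induced gene were lower. With no low-count filter 2 hypoxia-induced genes were higher, against 2726 of all 29366 genes tested. The cause of these differences was not tested. The fit without robust estimation moved no count by more than 1.5 times.

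The labels do not say whether the replicate numbers pair the libraries. Same-numbered soft gel and rigid dish libraries had deviations that correlated at 0.217, 0.00912 and 0.307, against -0.295 to 0.137 for the other pairs. Soft gel 1 and 3 correlated best with the rigid dish library of the same number, and soft gel 2 with rigid dish 1 (0.137). With the number as a replicate block, 3565 genes were higher and 2998 lower, among them 5 growth factors higher. VEGFB (edgeR adjusted p = 0.0157), ANGPT1 (0.0154) and ANGPTL4 (0.00344) passed in that fit. The block also raised those called higher to 4 receptors, 4 processing genes, 5 inhibitors and 3 hypoxia-induced genes. Depth limits HGF (1 count on the rigid dish) and PDGFA (25 to 39 counts in soft gel).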
